A study of Mus musculus with 12 samples.

Results

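The Fc receptor genes are 6 of the 56735 gene names counted in subdural CNS-associated macrophages (sdCAMs) sorted by CD206, the cells that line the leptomeninges and the perivascular spaces of the brain. They were taken by name: the activating Fc gamma receptors Fcgr1, Fcgr3 and Fcgr4, the inhibitory Fc gamma receptor Fcgr2b, the signalling chain Fcer1g and the neonatal Fc receptor Fcgrt. All 6 passed the filter on low counts, in every group rather than through a single one, and belong to the 13724 genes tested. Cells came from mouse brains whose choroid plexuses had been left out, and were measured by bulk RNA-seq in 12 libraries, 4 per group. The groups were vehicle tdT+, BLZ945 tdT+ and BLZ945 tdT- cells.

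All mice, vehicle mice included, had the genotype Mrc1CreERT2/CreERT2:R26tdT/tdT and received tamoxifen 4 weeks before treatment. Cre activity followed Mrc1, the gene of CD206, so tdTomato (tdT) marked cells that expressed Mrc1 when tamoxifen was given, along with their descendants. BLZ945 blocks the CSF-1 receptor and enters the brain. It was given for 7 days at a dose of 200 mg per kg, 8 weeks before the cells were collected. A tdT- cell of a treated mouse can descend from a cell outside the labelled pool or from a cell that escaped labelling, and the counts do not separate these. In each group the mice are labelled F1, F2, M1 and M2, and BLZ945 tdT+ and tdT- libraries with the same label came from the same animal. Vehicle mice were other animals, and their library names carry the word pre where those of treated mice carry Post, so treatment and any difference in time of isolation cannot be told apart. The entry for tdTomato in the table had 0 counts in all 12 libraries, so the reporter could not be checked on RNA.

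Libraries held between 19969308 and 23395058 counts. All 8 border macrophage markers were detected in each group, and their summed normalised counts ranged from 294340 to 340813 in vehicle tdT+, from 328572 to 371553 in BLZ945 tdT+ and from 180524 to 233255 in BLZ945 tdT- libraries. The 5 microglia markers (P2ry12, Tmem119, Sall1, Siglech and Sparc) summed to between 20507 and 31779.5, between 40019.7 and 42988 and between 95684 and 227103 in the same order, and none of them was at 0. The BLZ945 tdT- library of mouse F2 stood apart, with 422875 normalised counts over 7 neutrophil markers against 11.5 to 93.9 in the other 3 tdT- libraries, and with 51211 counts over 6 classical monocyte markers against 3076 to 6650. Because Fcgr3, Fcgr4 and Fcer1g are also genes of neutrophils and monocytes, their results are given with and without it.

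Fc receptors bind the constant part of antibodies and tie antibody recognition to the response of a cell. The activating Fc gamma receptors of the mouse carry no signalling motif of their own and work with the gamma chain encoded by Fcer1g, whose immunoreceptor tyrosine-based activation motif (ITAM) recruits the kinase Syk. Fcgr2b opposes them through an immunoreceptor tyrosine-based inhibition motif (ITIM) that recruits the phosphatase SHIP-1, encoded by Inpp5d. The neonatal receptor differs from both, since it resembles a class I MHC molecule, pairs with beta-2 microglobulin and returns IgG and albumin from endosomes to the cell surface. Macrophages at CNS borders and microglia both express Fc gamma receptors, through which they take up opsonised particles.

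The motifs that set the activating and the inhibitory arm apart are shown as coding bases, from the principal GENCODE M21 transcripts of Fcer1g and Fcgr2b, 5′ to 3′, with the codons of the motif tyrosines in capitals. The Fcer1g stretch covers codons 65 to 79 of 86 and holds both tyrosines of the ITAM. The Fcgr2b stretch is 54 bases long and surrounds the ITIM at codons 317 to 322 of 340. A search for the ITAM spacing in the coding sequence of all 6 members found 1 match, that of Fcer1g.
Fcer1g ITAM: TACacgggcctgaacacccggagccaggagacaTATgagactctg
Fcgr2b ITIM: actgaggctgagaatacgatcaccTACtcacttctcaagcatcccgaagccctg

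Fcgr2b, Fcgr4 and Fcgr3 lie within 106 kb of mouse chromosome 1 (GRCm39), with Fcgr2b at chr1:170786186-170804116 and Fcgr3 at chr1:170878743-170892504 on the minus strand and Fcgr4 at chr1:170846489-170857330 on the plus strand. Fcer1g follows at chr1:171057141-171061934 on the minus strand. Outside this region lie Fcgr1, at chr3:96190225-96201285, and Fcgrt, at chr7:44742414-44753275, both on the minus strand. Fcgr2b exons overlap those of the opposite-strand gene Gm38204 by 155 bases, but Gm38204 averaged 0.417 counts per library, and no exon of another gene overlapped the remaining members.

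Fcgr2b and Fcgr3 are close copies in the part that encodes their extracellular domains, and their longest identical coding run is 129 bases, shown here because reads inside it cannot be placed. It spans coding bases 278 to 406 of Fcgr2b and 263 to 391 of Fcgr3. Of 1298 windows of 50 bases in the longest Fcgr3 coding transcript, 166 also occur in Fcgr2b, and at 100 bases the number is 44 of 1248. Reads with several matches were not counted, so both genes lose reads there and their levels are lower bounds. Fcgr2b shares 436 of its 3495 windows of 50 bases with 145 other genes in all, Fcgr3 among them. The other pairs among the Fc gamma receptors share at most 14 identical bases in a row, and Fcgr1, Fcgr4, Fcer1g and Fcgrt had 0 windows of 50 bases in common with any other gene.
Fcgr2b and Fcgr3 shared run: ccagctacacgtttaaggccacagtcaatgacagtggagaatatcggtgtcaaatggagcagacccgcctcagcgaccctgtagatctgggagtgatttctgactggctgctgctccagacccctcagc

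Per kb of exon, which allows genes to be compared with each other, Fcer1g was the most abundant member and Fcgr4 the least in all 3 groups. Vehicle tdT+ cells had 68749 ± 4314 normalised counts per kb of Fcer1g (SD, n = 4), 22870 ± 1368 of Fcgr3, 14594 ± 1194 of Fcgrt, 5700.3 ± 125 of Fcgr2b, 3769 ± 206 of Fcgr1 and 627 ± 261 of Fcgr4. Every neighbouring pair in that order was separate, with the lowest library of the higher gene above the highest library of the lower gene. The order was the same in BLZ945 tdT+ cells, again with no overlap between neighbours.

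In BLZ945 tdT- cells the middle of the order closed up. Fcgrt was at 5894 ± 920 normalised counts per kb (SD, n = 4), Fcgr2b at 4244 ± 761 and Fcgr1 at 3829 ± 484, and the libraries of Fcgrt and Fcgr2b overlapped, as did those of Fcgr2b and Fcgr1. Among all 56735 gene names, Fcer1g ranked 13th, 13th and 16th per kb in vehicle tdT+, BLZ945 tdT+ and BLZ945 tdT- cells and Fcgr3 ranked 33rd, 30th and 31st. Fcgrt moved from rank 57 and rank 62 in the tdT+ groups to rank 149 in tdT- cells. The Fcgr2b exon length of 5790 bases is merged over its transcripts. With the longest protein-coding transcript as length, an alternative added after the data were seen, Fcgr2b reached 9313, 11499 and 6934 normalised counts per kb in the 3 groups and was separate from Fcgr1 in all of them.

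**Figure D1:**
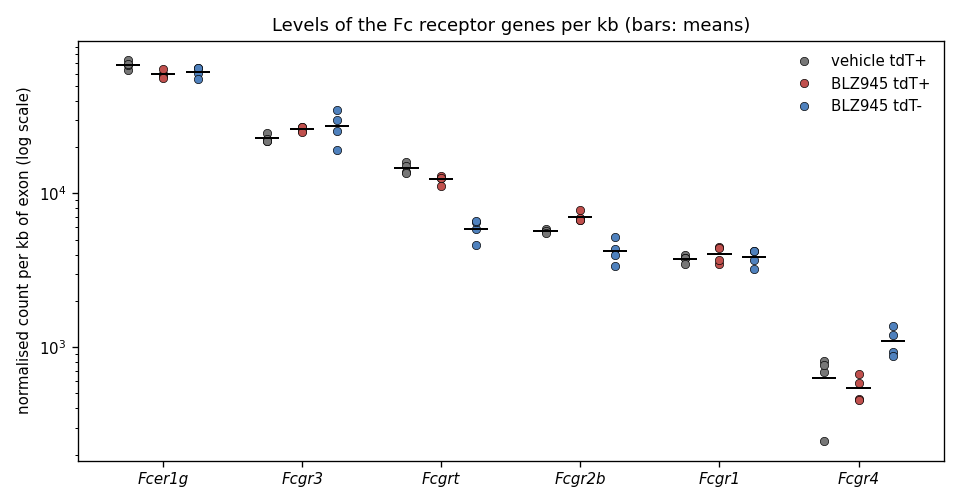
Normalised counts per kb of exon on a log scale for the 6 Fc receptor genes, with 4 libraries per group as points and group means as bars. Fcer1g lies highest and Fcgr4 lowest in all 3 groups, and the tdT- points of Fcgrt drop to those of Fcgr2b.

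Cells without tdT were set against tdT+ cells from the same BLZ945 mice to ask how cells without the label differ from labelled cells after repopulation. Of the 6 members, Fcgr2b and Fcgrt fell in tdT- cells and 0 rose, against 3.51% of all genes tested that were lower and 2.86% that were higher at an adjusted p of at most 0.05. Fcgr4 was higher in tdT- cells of all 4 mice but missed that threshold, and Fcgr1, Fcgr3 and Fcer1g did not pass it either. This fit has group as its only term and leaves out the pairing by mouse. With the mouse as a block in the 8 libraries compared, Fcgr4 passed too, so 3 members were called, as were 998 of 13536 genes. For Fcgr2b, Fcgr4 and Fcgrt the 2 groups did not overlap, which held for 9.35% of all genes tested. In bulk RNA, fewer cells that express a gene and less RNA per cell cannot be told apart.

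The inhibitory receptor Fcgr2b had 39962, 39050, 38855 and 45140 normalised counts in BLZ945 tdT+ cells of mice F1, F2, M1 and M2 and 25350, 19625, 23168 and 30159 in their tdT- cells. The highest tdT- library lay below the lowest tdT+ library, and the tdT- level was between 0.503 and 0.668 of the tdT+ level within each mouse. The log2 fold change was -0.71 ± 0.11 (SE; adjusted p = 9.72e-09, DESeq2). It stayed past the threshold with edgeR's quasi-likelihood test (adjusted p = 0.00262) and without the tdT- library of F2 (log2 fold change -0.62, adjusted p = 1.35e-09, DESeq2).

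The neonatal receptor Fcgrt showed the largest change among the 6 members in this comparison. Its tdT+ libraries held 23528, 26644, 27118 and 26565 normalised counts and the tdT- libraries 12310, 9689, 13609 and 13947, in the order F1, F2, M1 and M2. Every tdT- library lay far below every tdT+ library, with ratios within the mouse between 0.364 and 0.525. The log2 fold change was -1.04 ± 0.11 (SE; adjusted p = 3.20e-18, DESeq2), which made Fcgrt the sole member to pass the fold threshold of the study (1 on the log2 scale), as did 1.06% of all genes tested in the lower direction. Without the tdT- library of F2 the log2 fold change was -0.96, under that fold but with an adjusted p of 1.99e-25 (DESeq2).

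Fcgr4, the activating receptor for IgG2a and IgG2b that is best known from monocytes and neutrophils, was the least abundant member. Its normalised counts were 575, 737, 573 and 838 in tdT+ cells of F1, F2, M1 and M2 and 1174, 1103, 1723 and 1499 in tdT- cells. All 4 tdT- libraries lay above all 4 tdT+ libraries, by 2.04-fold, 1.497-fold, 3.01-fold and 1.79-fold in F1, F2, M1 and M2. The log2 fold change was 0.77 ± 0.38 (SE; adjusted p = 0.0508, DESeq2). In the 8 libraries of these groups alone it was 0.89 with an adjusted p of 0.00262 (DESeq2), and with the mouse, which is the pairing of the design, as a block in the same 8 libraries it was 0.86 with an adjusted p of 0.00924 (DESeq2). Leaving out the tdT- library of F2 gave 0.85 with an adjusted p of 0.0472 (DESeq2). Leaving out any other of the 8 libraries missed the threshold, with an adjusted p between 0.0556 and 0.170 (DESeq2), and edgeR gave an adjusted p of 0.149.

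Markers of other cell types that can express Fcgr4 differed between the same libraries. Classical monocyte markers (4 of 6 tested, 2 higher in tdT- cells and 0 lower) summed to between 901 and 1981 normalised counts in BLZ945 tdT+ and between 3076 and 51211 in tdT- libraries, without overlap. Their defining gene Ccr2 had 1172, 1981, 847 and 856 normalised counts in tdT+ and 6288, 12013, 5226 and 3076 in tdT- cells of F1, F2, M1 and M2, and Vcan was at 0 in all 12 libraries. Non-classical monocyte markers (5 of 6 tested) summed to between 133 and 831 normalised counts in BLZ945 tdT+ and between 388 and 3363 in tdT- libraries, and the neutrophil sum was high in the tdT- library of F2 alone, which had the lowest Fcgr4 of the tdT- group. Their part in the Fcgr4 difference was not tested.

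The remaining activating members and their chain showed little difference between tdT- and tdT+ cells. Fcgr1, the high-affinity IgG receptor, had 9032, 9509, 11535 and 11401 normalised counts in tdT+ and 9482, 8331, 10879 and 10957 in tdT- cells of F1, F2, M1 and M2. The groups overlapped, and the 95% interval of the unshrunken log2 fold change ran from -0.30 to 0.17 (adjusted p = 0.919, DESeq2).

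Fcgr3, a low-affinity activating receptor, had 44488, 47023, 46986 and 43746 normalised counts in tdT+ and 44085, 33245, 60593 and 52095 in tdT- cells. The tdT- libraries spread widely, below their tdT+ partners in F1 and F2 and above them in M1 and M2, and the interval of the log2 fold change ran from -0.21 to 0.33 (adjusted p = 0.936, DESeq2). Fcgr3 gave a log2 fold change of 0.17 without the tdT- library of F2 (adjusted p = 0.279, DESeq2), against 0.045 with it. Fcer1g had 52472, 50306, 48849 and 56501 normalised counts in tdT+ and 52980, 48745, 57262 and 57175 in tdT- cells. Its interval, from -0.10 to 0.21 (adjusted p = 0.875, DESeq2), was the narrowest of the 6, and without the tdT- library of F2 its log2 fold change was 0.093 (adjusted p = 0.591, DESeq2).

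**Figure D2:**
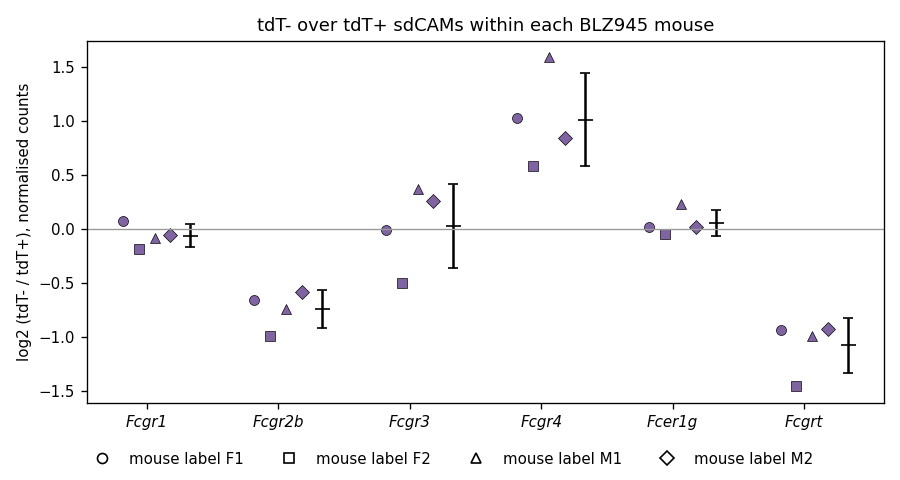
Log2 ratio of normalised counts, tdT- over tdT+ cells of the same BLZ945 mouse, for each Fc receptor gene, with a symbol per mouse and the mean and SD at the right. Fcgr2b and Fcgrt lie below 0 and Fcgr4 above 0 in all 4 mice, whereas Fcgr3 lies on both sides.

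The border macrophage markers mostly moved in the same direction as Fcgr2b and Fcgrt, and the microglia markers in the opposite direction. Among the 8 border macrophage markers 7 fell and 0 rose in tdT- against tdT+ cells of BLZ945 mice, and all 5 microglia markers rose. Mrc1, whose protein was used for the sort, had 8579, 8004, 12341 and 9918 normalised counts in tdT+ and 3882, 3738, 2232 and 3421 in tdT- cells. The share of these differences in the Fc receptor results was not tested.

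BLZ945 tdT+ cells were set against vehicle tdT+ cells to ask what treatment left behind in labelled cells 8 weeks later. None of the 6 members passed the threshold in DESeq2 or in edgeR, against 0.481% of all genes tested that were higher and 0.474% that were lower. At an unadjusted p under 0.05 there were 3 of 6 with DESeq2 and 3 of 6 with edgeR, against 8.08% and 6.95% of all genes tested. The groups did not overlap for Fcgr2b, Fcgr3 and Fcgrt, against 6.72% of all genes tested.

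Fcgr2b had 32883, 33951, 32995 and 32189 normalised counts in vehicle tdT+ cells, all below the lowest BLZ945 tdT+ library at 38855. The log2 fold change was 0.24 ± 0.12 (SE; adjusted p = 0.234, DESeq2), and a fit on the 8 libraries of these groups alone gave 0.28 with an adjusted p of 7.64e-04 (DESeq2). Fcgrt had 33623, 31886, 28846 and 28352 normalised counts in vehicle tdT+ cells, all above the highest BLZ945 tdT+ library at 27118. Its log2 fold change was -0.17 ± 0.11 (SE; adjusted p = 0.523, DESeq2).

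For Fcgr3, vehicle tdT+ cells had 43138, 38208, 39438 and 38028 normalised counts, all below the BLZ945 tdT+ libraries, a log2 difference of 0.11 ± 0.12 (SE; adjusted p = 0.896, DESeq2). Fcer1g had 64684, 55566, 59319 and 60777 normalised counts in vehicle tdT+ cells, and the lowest of these lay under the highest BLZ945 tdT+ library (log2 fold change -0.17 ± 0.08, SE; adjusted p = 0.247, DESeq2). Fcgr1 and Fcgr4 overlapped between the groups. Fcgr4 varied most among the vehicle mice, with 1025, 306, 864 and 956 normalised counts, and the interval of its log2 fold change, from -0.89 to 0.47, was the widest of the 6. Fcgr1 had 10261, 9888, 9880 and 9001 normalised counts in vehicle tdT+ cells and an interval from -0.14 to 0.32.

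Against vehicle tdT+ cells, BLZ945 tdT- cells differed in the same members. These 2 comparisons share the tdT- libraries, so they are not independent. Fcgr2b and Fcgrt fell and 0 of 6 rose, against 3.49% of all genes tested that were lower and 3.27% that were higher, and the groups did not overlap for Fcgr2b, Fcgr4 and Fcgrt, against 9.7% of all genes tested. Fcgrt changed by -1.29 ± 0.11 on the log2 scale (SE; adjusted p = 7.27e-28, DESeq2), past the fold threshold together with 1.07% of all genes tested in the lower direction. Fcgr2b changed by -0.40 ± 0.11 (SE; adjusted p = 0.0041, DESeq2; adjusted p = 0.0466 with edgeR).

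Fcgr4 was higher by 0.54 ± 0.37 on the log2 scale in this comparison (SE; adjusted p = 0.175, DESeq2), with the lowest tdT- library at 1103 and the highest vehicle library at 1025 normalised counts. Without the tdT- library of F2 it was 0.60 (adjusted p = 0.142, DESeq2). Fcgr3 differed by 0.22 ± 0.13 (SE; adjusted p = 0.344, DESeq2). Without the tdT- library of F2, in which Fcgr3 was lowest, it reached 0.36 with an adjusted p of 0.00184 (DESeq2), so that 1 library decides this call. Fcer1g (log2 fold change -0.14, adjusted p = 0.297, and -0.10 with an adjusted p of 0.468 without that library, DESeq2) and Fcgr1 (0.02, adjusted p = 0.98, DESeq2) did not pass the threshold.

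**Figure D3:**
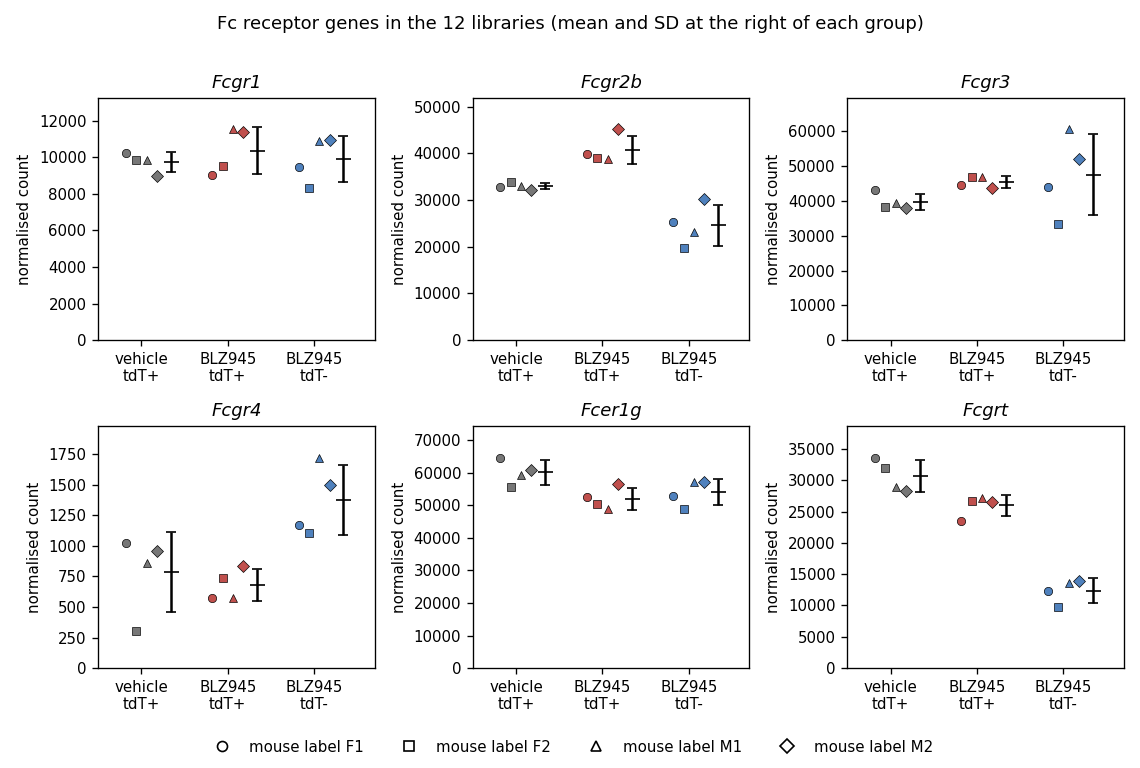
Normalised counts of the 6 Fc receptor genes in the 12 libraries, by group, with a symbol per mouse label and the mean and SD at the right of each group. The tdT- points of Fcgrt, between 9689 and 13947, lie far below both tdT+ groups, and those of Fcgr2b lie below both without overlap.

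**Figure D4:**
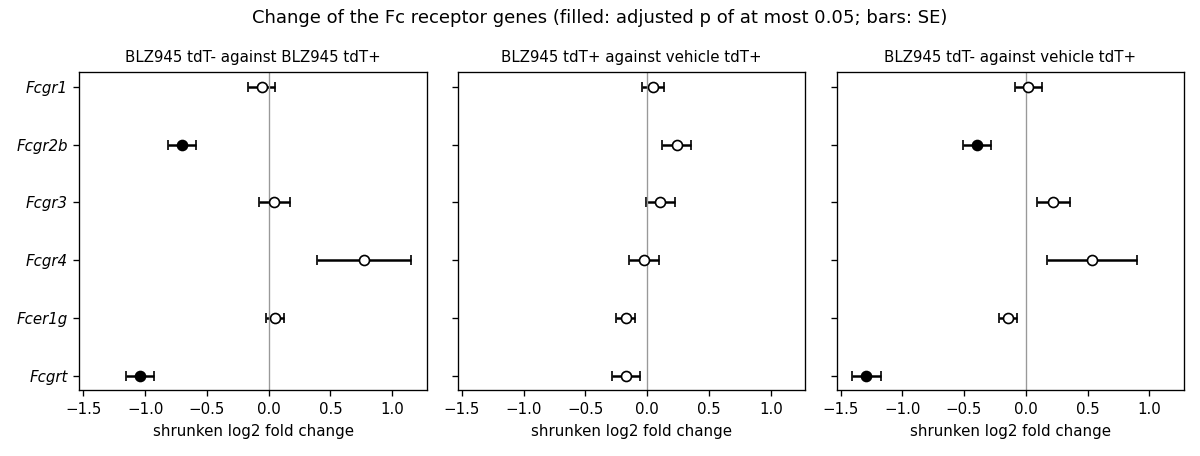
Shrunken log2 fold changes with SE for the 3 comparisons, with filled points at an adjusted p of at most 0.05 (DESeq2). Fcgr2b and Fcgrt are filled in both comparisons of tdT- cells, and no point is filled for BLZ945 tdT+ against vehicle tdT+ cells.

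Activating against inhibitory Fc gamma receptor RNA was set side by side within each library as the ratio of per-kb levels, a description with no test since it is a score over the members. The sum of Fcgr1, Fcgr3 and Fcgr4 over Fcgr2b was 5.22, 4.45, 4.78 and 4.70 in vehicle tdT+ libraries of F1, F2, M1 and M2. It was 4.28, 4.65, 4.77 and 3.88 in BLZ945 tdT+ libraries and 6.85, 6.86, 10.1 and 6.80 in BLZ945 tdT- libraries. All tdT- libraries lay above both tdT+ groups, which overlapped with each other, and M1 stood above the other 3.

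Fcgr3 made up most of the sum, and its ratio to Fcgr2b was 4.01 ± 0.26 in vehicle tdT+, 3.75 ± 0.37 in BLZ945 tdT+ and 6.48 ± 1.49 in BLZ945 tdT- cells (SD, n = 4). For Fcgr1 the ratios were 0.661 ± 0.031, 0.57 ± 0.067 and 0.912 ± 0.11, and for Fcgr4 0.111 ± 0.047, 0.0767 ± 0.011 and 0.261 ± 0.058. In each of the 3 ratios the tdT- libraries did not overlap either tdT+ group. All 3 share Fcgr2b as denominator, so they are independent neither of each other nor of the lower Fcgr2b in tdT- cells. Fcgr1 and Fcgr3 counts taken alone overlapped between tdT- cells and both tdT+ groups. Library scaling cancels in these ratios. The length taken for Fcgr2b does not, and with the longest protein-coding transcript the sum over Fcgr2b was 3.64, 3.35 and 5.83 in the 3 groups.

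**Figure D5:**
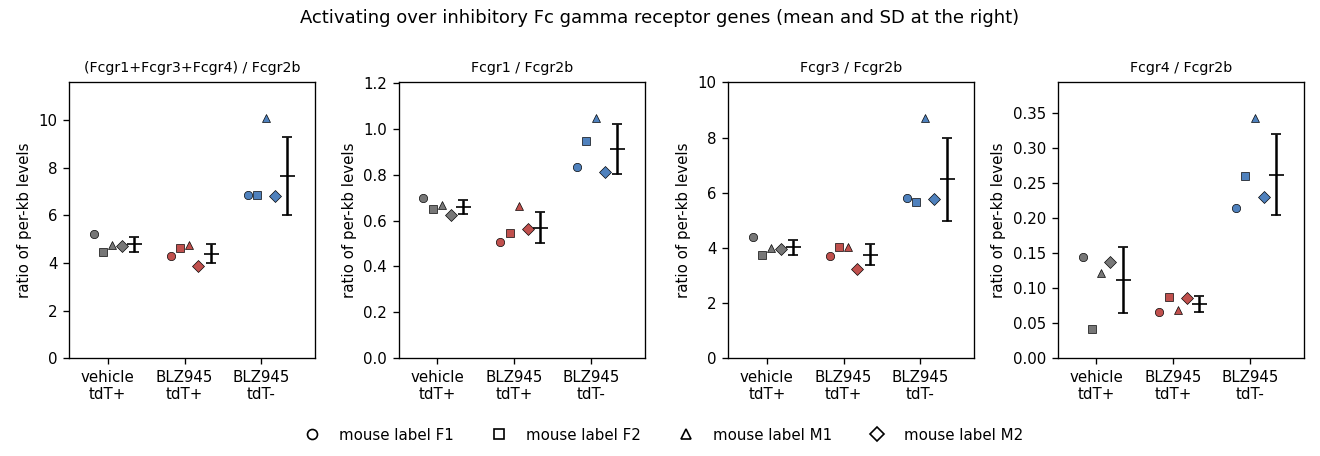
Ratios of per-kb levels of activating Fc gamma receptor genes to Fcgr2b in each library, as a sum and gene by gene, with mean and SD at the right of each group. The tdT- libraries sit above both tdT+ groups in all 4 panels, which share Fcgr2b as denominator.

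The promoters of the 3 members whose tdT- and BLZ945 tdT+ groups did not overlap are shown as 300 bases that reach from upstream of the annotated start to just past it (RefSeq, GRCm38.p6, a different build from the counts), 5′ to 3′ on the strand of the gene. They are Fcgr2b at chr1:170976022-170976321 (minus strand), Fcgrt at chr7:45103773-45104072 (minus strand) and Fcgr4 at chr1:171018676-171018975 (plus strand). Capitals mark matches on either strand to GAGGAA, a core of the myeloid factor PU.1, to TTCNNNGAA, bound by STAT factors, or to TGANTCA, bound by AP-1. Among 32851 promoters of this length, 28.3% hold GAGGAA, 8.30% TTCNNNGAA and 7.81% TGANTCA. Fcgr4 holds 1 match to GAGGAA, read as TTCCTC, and Fcgr2b and Fcgrt hold 0 matches to any of the 3. Among the members not shown, Fcgr1 holds 1 match to GAGGAA and 1 to TTCNNNGAA. Each annotated Fcgr3 promoter holds 1 match to GAGGAA, and Fcer1g holds 0 matches. A link between these matches and the levels was not tested.
Fcgr2b promoter: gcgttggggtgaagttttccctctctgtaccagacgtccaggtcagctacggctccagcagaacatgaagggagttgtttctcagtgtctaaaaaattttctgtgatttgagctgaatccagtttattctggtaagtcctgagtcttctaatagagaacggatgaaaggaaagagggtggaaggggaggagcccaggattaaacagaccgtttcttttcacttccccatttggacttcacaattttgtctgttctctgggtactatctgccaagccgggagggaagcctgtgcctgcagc
Fcgrt promoter: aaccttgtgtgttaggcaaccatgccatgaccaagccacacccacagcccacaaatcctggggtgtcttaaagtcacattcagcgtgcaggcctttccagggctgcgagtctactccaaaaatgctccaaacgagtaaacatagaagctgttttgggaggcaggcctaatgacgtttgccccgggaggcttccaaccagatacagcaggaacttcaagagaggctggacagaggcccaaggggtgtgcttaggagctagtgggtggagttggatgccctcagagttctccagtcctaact
Fcgr4 promoter: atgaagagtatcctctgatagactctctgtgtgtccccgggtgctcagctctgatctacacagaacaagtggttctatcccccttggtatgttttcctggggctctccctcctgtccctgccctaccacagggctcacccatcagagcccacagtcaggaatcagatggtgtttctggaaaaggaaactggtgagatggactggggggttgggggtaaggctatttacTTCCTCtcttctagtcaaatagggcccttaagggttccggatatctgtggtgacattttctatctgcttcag

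Genes next to the members other than Fcgrt gave a local comparison. Within 100 kb of Fcgr2b 4 other genes were tested, within 100 kb of Fcgr3 and of Fcgr4 2 each, around Fcer1g 10 and around Fcgr1 8, some of them near more than 1 member, which makes 23 genes. Of these 0 passed the threshold in any of the 3 comparisons with DESeq2 or edgeR. With DESeq2, 2.86%, 0.481% and 3.27% of all genes tested were higher and 3.51%, 0.474% and 3.49% lower. At an unadjusted p under 0.05 there were 1, 0 and 1 with DESeq2, beside 15.8%, 8.08% and 16.2% of all genes tested. The order is tdT- against BLZ945 tdT+, BLZ945 tdT+ against vehicle tdT+ and tdT- against vehicle tdT+. Few calls would be met among 23 genes at these shares, so the 0 does not set the members apart from their neighbours.

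Of 90 listed genes of the Fc receptor pathway that are not members, 75 were tested. Between BLZ945 tdT- and tdT+ cells 5 were higher and 3 lower with DESeq2, beside 2.86% and 3.51% of all genes tested, with a median log2 fold change of 0.030 against 0.0010 over all genes tested. With edgeR 5 passed in either direction, beside 2.75% of all genes tested. Between tdT- and vehicle tdT+ cells 6 were higher and 3 lower, beside 3.27% and 3.49% (median 0.042 against 0.0050), and edgeR passed 5, beside 3.25% of all genes tested. Between BLZ945 tdT+ and vehicle tdT+ cells 0 passed with DESeq2 or edgeR, where DESeq2 had 0.481% of all genes tested higher and 0.474% lower. At an unadjusted p under 0.05 there were 7 with either tool, beside 8.08% of all genes tested with DESeq2 and 6.95% with edgeR.

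Tyrobp and B2m stayed below the threshold in every comparison. Tyrobp, which encodes the ITAM adaptor DAP12, had 37359 ± 2091 normalised counts in vehicle tdT+, 34733 ± 1483 in BLZ945 tdT+ and 38535 ± 2996 in BLZ945 tdT- cells (SD, n = 4). B2m, the light chain of the neonatal receptor, had 158902 ± 10918, 150718 ± 16530 and 175022 ± 9559. While Fcgrt fell, B2m gave a log2 fold change of 0.20 ± 0.08 between tdT- and BLZ945 tdT+ cells (SE; adjusted p = 0.125, DESeq2).

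Among 8 genes of the neonatal receptor and of antibody handling, Fcgrt included, 2 were lower and 1 higher in tdT- cells in both comparisons. Of all genes tested, 3.51% were lower and 2.86% higher against BLZ945 tdT+ cells, and 3.49% and 3.27% against vehicle cells. Ctss, the lysosomal protease cathepsin S, rose by 0.72 ± 0.13 on the log2 scale against BLZ945 tdT+ cells (SE; adjusted p = 4.16e-07, DESeq2), from 130174 ± 14150 to 219086 ± 43961 normalised counts (SD, n = 4). Snx3, a sorting nexin of endosomal recycling, fell by 0.40 ± 0.14 on the log2 scale (SE; adjusted p = 0.0284, DESeq2). Its adjusted p was 0.0873 without the tdT- library of F2 (DESeq2) and 0.110 with edgeR, but 7.66e-05 with the mouse block (DESeq2). Against vehicle cells Snx3 passed without the tdT- library of F2 (adjusted p = 0.0174, DESeq2) and with edgeR (adjusted p = 0.0454).

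Of 29 tested genes of activating signalling, Lat2 was higher and Pik3cg lower in tdT- than in BLZ945 tdT+ cells. That is near the 2.86% of all genes tested that were higher and the 3.51% that were lower. Lat2, an adaptor beneath immunoreceptors, had 499 ± 102 normalised counts in BLZ945 tdT+ and 2005 ± 139 in tdT- cells (SD, n = 4; log2 fold change 1.94 ± 0.28, SE; adjusted p = 4.09e-11, DESeq2). Pik3cg, a PI3 kinase subunit, went from 7866 ± 1355 to 4169 ± 665 (log2 fold change -0.85 ± 0.19, SE; adjusted p = 7.43e-05, DESeq2). Against vehicle cells the Src family kinase genes Lyn (0.46 ± 0.12, adjusted p = 0.00149, DESeq2) and Fyn (1.30 ± 0.60, adjusted p = 0.0233, DESeq2) were also higher, though neither Lyn (adjusted p = 0.0554) nor Fyn (adjusted p = 0.115) passed with edgeR. Pik3cg was lower against vehicle cells too (log2 fold change -0.52, adjusted p = 0.0263, DESeq2), but not without the tdT- library of F2 (adjusted p = 0.0778, DESeq2) or with the mouse block (adjusted p = 0.0664, DESeq2).

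Inhibitory signalling, in which Inpp5d and Ptpn6 act below Fcgr2b, had 0 of 12 genes past the threshold in all 3 comparisons with DESeq2 or edgeR. At an unadjusted p under 0.05 there were 2, 1 and 4 with DESeq2, against 15.8%, 8.08% and 16.2% of all genes tested, in the order tdT- against BLZ945 tdT+, BLZ945 tdT+ against vehicle tdT+ and tdT- against vehicle tdT+. Inpp5d gave a log2 fold change of 0.26 between tdT- and BLZ945 tdT+ cells (adjusted p = 0.416, DESeq2), and Ptpn6 0.18 (adjusted p = 0.246, DESeq2). Without the tdT- library of F2, Rasa1, a GTPase-activating protein for Ras, was lower in tdT- cells than in BLZ945 tdT+ cells (log2 fold change -0.70, adjusted p = 0.0151, DESeq2), as it was with the mouse block in the 8 libraries compared (adjusted p = 0.0209, DESeq2). Rasa1, Inpp5d and Ptpn6 are named although outside the rule for named genes, Rasa1 for its changed call and the others because their products bind the ITIM.

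Calls of 4 further pathway genes, named here after their values were seen, also depended on the fit. Without the tdT- library of F2, Vav2, a guanine nucleotide exchange factor, was lower in tdT- than in BLZ945 tdT+ cells (log2 fold change -0.88, adjusted p = 0.00196, DESeq2) and than in vehicle cells (-0.72, adjusted p = 0.0131, DESeq2). Lgmn, a lysosomal protease, was then higher (0.29, adjusted p = 0.0494, and 0.41, adjusted p = 0.0022, in the same order, DESeq2). Clec4e also passed against BLZ945 tdT+ cells (adjusted p = 4.56e-07, DESeq2), although it had 0 counts in all BLZ945 tdT+ libraries and, of the 3 tdT- libraries left, was detected in M1 alone, at 87.5 normalised counts. With the mouse block, the Src family kinase gene Fgr passed in both comparisons (adjusted p = 5.75e-04 and 0.0253, DESeq2), with 0 to 57.1 normalised counts in BLZ945 tdT+, 0 to 155 in vehicle tdT+ and 53.2 to 524 in tdT- libraries.

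The phagocytic actin genes numbered 16, of which Coro1a and Myo1g were higher in tdT- than in BLZ945 tdT+ cells and 0 lower. Of all genes tested, 2.86% were higher and 3.51% lower. Coro1a, which encodes the actin regulator coronin 1A, went from 3791 ± 557 to 11629 ± 2340 normalised counts (SD, n = 4; log2 fold change 1.58 ± 0.17, SE; adjusted p = 2.03e-19, DESeq2). Myo1g ranged from 312 to 698 in BLZ945 tdT+ and from 748 to 1154 in tdT- libraries (log2 fold change 0.75, adjusted p = 0.0352, DESeq2), but edgeR gave an adjusted p of 0.123 and the mouse block in the 8 libraries compared 0.116 (DESeq2).

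The list of receptors drawn up for pairing with the gamma chain had 1 of 7 tested genes past the threshold between tdT- and BLZ945 tdT+ cells. That gene was lower in tdT- cells, as were 3.51% of all genes tested. Pairing was not checked for each gene on the list, Pirb and Cd300lb among them. Clec4n, the gene of the fungal receptor Dectin-2, had 11555 ± 1435 normalised counts in BLZ945 tdT+ and 4365 ± 1333 in tdT- cells (SD, n = 4; log2 fold change -1.35 ± 0.21, SE; adjusted p = 6.48e-10, DESeq2). Of 13 other immunoglobulin receptors 3 were tested, and Fcamr, Pigr, Fcrl5, Fcrl6 and Fcgbp had 0 counts in all 12 libraries. At these depths the floor of 3 counts corresponds to between 2.597 and 3.16 normalised counts, and this floor covers counting error only, since the counts come from PCR-amplified cDNA. Fcrl1, an Fc receptor-like gene of B cells, was higher in tdT- than in BLZ945 tdT+ cells (482 ± 228 against 102 ± 94.5 normalised counts; log2 fold change 1.73 ± 0.81, SE; adjusted p = 0.0205, DESeq2), but not with edgeR (adjusted p = 0.143).

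The genes whose pattern over the 12 libraries was most like that of a member were found by Pearson's r of log2(normalised count + 1) among 9303 genes, as a description across libraries that share groups and depth. Fcgrt was followed most closely by Cd209b (r = 0.987), Cbr2 (r = 0.975) and Cd209f (r = 0.972), the first and the last being C-type lectin genes and Cbr2 one of the 8 border macrophage markers. After group means were removed the r values were 0.864, 0.813 and 0.822. For Fcgr2b the nearest were Ggta1 (r = 0.977), Nmd3 (r = 0.959) and Hgsnat (r = 0.951), and within groups these had r of 0.959, 0.893 and 0.905.

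For Fcgr3 the nearest gene was C1qc, a complement chain (r = 0.943), followed by Entpd1 (r = 0.927) and Ctsf (r = 0.924). Fcgr4 was nearest to Mthfd2 (r = 0.932), Mrpl33 (r = 0.915) and Psma7 (r = 0.896), Fcer1g to Map1lc3a (r = 0.890), Ubxn1 (r = 0.879) and Ly6e (r = 0.877), and Fcgr1 to Dolk (r = 0.887), Hsp90ab1 (r = 0.847) and Crim1 (r = 0.839). Between members, the strongest pair over all libraries was Fcgr2b with Fcgrt (r = 0.803 over 12 libraries, 0.676 after removal of group means). Both are lower in tdT- cells, which enters the first value. After removal of group means other pairs were stronger: Fcgr3 with Fcgrt (0.858), Fcgr1 with Fcgrt (0.830), Fcgr4 with Fcer1g (0.721) and Fcgr1 with Fcgr3 (0.687).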

How the data were processed

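RNA from sorted sdCAMs was amplified by PCR with a SMART-Seq protocol, and the authors deposited read counts per gene name, not normalised and not pooled. Per the file headers, the authors counted exon reads with featureCounts 2.0.6 on a filtered GENCODE M33 annotation (GRCm39), without strand and without multi-mapping reads. The submitters' processing notes also name STAR 2.7.11a, bcl2fastq 2.20 and DESeq2 1.46.0. The deposited exon lengths are merged over transcripts. For a single vehicle column the library number pointed to M2 and the label to M1, and the number was followed.

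Genes were dropped if 75% or more of the libraries had fewer than 10 counts. DESeq2 1.42.0 (two-sided Wald test, all 12 libraries, group as the only term) was run in R 4.3.3 with apeglm 1.24.0 shrinkage and Benjamini-Hochberg adjustment over 13724 genes. Genes were called at an adjusted p of at most 0.05. Normalised counts are counts divided by size factors. Intervals of fold changes are 95% intervals of unshrunken values. Alternatives were edgeR 4.0.16, TMM factors, other filters, the 8 libraries compared, the mouse label as a block in those 8 libraries, its letter as a covariate, and leaving out each library. Scripts were tested on simulated data, in which DESeq2 made more false calls than edgeR, so calls that edgeR does not share are less certain. Results for 1 microglia marker, 1 signalling gene and the neighbours of Fcgrt are not reported here. The members, gene lists and markers were chosen with earlier results of these data known. Pathway genes are named if among the 4 with the smallest adjusted p of their list and averaging 100 normalised counts or more, and Tyrobp and B2m always. Deviations from group means of same-mouse tdT- and tdT+ libraries correlated at r between 0.106 and 0.264 over genes averaging 1000 normalised counts or more, and between -0.0046 and 0.035 over all genes; the pairing itself comes from the animals. Replicates are separate mice, and no pair of replicates was near sampling noise.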

Additional observations from a re-analysis of the deposited data

Results flagged for a closer look

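With 30 groups of 4 libraries examined for a library far from the rest, chance flags about 1 in 20, and 3 were flagged. Fcgrt in the BLZ945 tdT+ library of F1 was low, at 23528 normalised counts against 26565 to 27118 in the other 3. The summed activating receptors over Fcgr2b reached 10.1 in the BLZ945 tdT- library of M1 against 6.80 to 6.86 in the others, and Fcgr3 over Fcgr2b reached 8.72 there against 5.65 to 5.80. That library also held the highest summed microglia markers of all 12, at 227103 normalised counts, and the part of this in the ratio was not tested.

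Fcgr3 differed in direction between mice labelled F and M. The log2 ratio of tdT- to tdT+ cells of the same mouse averaged -0.26 over F1 and F2 and 0.31 over M1 and M2, with both F mice below 0 and both M mice above. F1 was close to 0, at -0.013, so that the F mean rests on F2, at -0.50, whose tdT- library holds the neutrophil and monocyte RNA. The difference between the letters was not tested.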

How the results depend on the processing

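Fcgr2b and Fcgrt kept their direction and stayed past the threshold in both comparisons of tdT- cells under all alternatives run. Between tdT- and BLZ945 tdT+ cells, Fcgr4 passed it with no filter on low counts (0.80) and with at least 10 counts in all libraries (0.81). It also passed in the 8 libraries alone (0.89), with the mouse block (0.86) and with the letter as covariate (0.76). Leaving out a library gave 0.57 to 0.85, past the threshold only without tdT- F2. Between BLZ945 tdT+ and vehicle tdT+ cells, the 8 libraries alone called 1 member, Fcgr2b (0.28), and the block called 2, Fcgr2b (0.27) and Fcer1g (-0.19). Vehicle and treated mice share only a label there. The block changed no other call among the members.

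Fcgr3 between tdT- and vehicle cells ranged from 0.10 to 0.36 when a library was left out, past the threshold without tdT- F2. Values near 0 changed sign. Fcgr1 between tdT- and vehicle cells was -0.0080 with TMM factors and -0.0079 with edgeR, and -0.025 to 0.074 with a library left out. Between tdT- and BLZ945 tdT+ cells, leaving out a library gave -0.11 to 0.0012 for Fcgr1 and -0.066 to 0.17 for Fcgr3. The causes were not tested.

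With the longest protein-coding transcript as length, levels per kb in vehicle tdT+, BLZ945 tdT+ and BLZ945 tdT- cells were 9313, 11499 and 6934 for Fcgr2b, 29475, 33824 and 35267 for Fcgr3, 87974, 76181 and 79122 for Fcer1g and 17331, 14669 and 6999 for Fcgrt, and the summed ratio was 3.64, 3.35 and 5.83. The shorter length is the cause. Over all genes, edgeR called 377 against 875 with DESeq2 between tdT- and BLZ945 tdT+ cells, 446 against 928 between tdT- and vehicle cells and 9 against 131 between BLZ945 tdT+ and vehicle cells, where no filter gave 256, the 8 libraries alone 325 and the block 367.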
